A study of Mus musculus with 6 samples.

Results

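Aminoacyl-tRNA synthetases are the enzymes that join each amino acid to its tRNA, the step that makes amino acids usable by the ribosome. Animal cells keep separate sets for the cytosol and for the mitochondrion, where a small number of respiratory chain subunits are made, and most mitochondrial enzymes are products of nuclear genes of their own. The transcripts of 36 synthetase genes were followed here in activated group 2 innate lymphoid cells (aILC2s), tissue-resident lymphocytes that produce type 2 cytokines in the lung. The genes were taken from a fixed list of symbols, 20 for cytosolic and 16 for mitochondrial enzymes, and all 36 were found among the 16381 genes listed in the deposited table and passed the filter on low values.

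The samples were wild type aILC2s sorted from the lungs of BALB/cJ mice that had received 0.5 µg IL-33 intranasally on each of 3 days, and were female and 6 to 8 weeks old according to the methods of the study. The sort took CD45+ lineage-negative cells with ST2 and CD127 on their surface. They were cultured for 24 h with 250 µM melatonin or with DMSO, its solvent, as vehicle, in 3 samples per group. No source used here says whether the samples came from separate mice, so p-values measure only the spread between these samples, part of which may be technical. Values are normalized counts, that is, estimated reads of a gene scaled by its library's size factor, with totals of 17056165 to 20511599 estimated counts over the 6 libraries.

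All 12 of the ILC2 markers examined, *Gata3*, *Il1rl1* and *Il7r* among them, were listed, and together they held between 140134 and 147135 normalized counts in vehicle and between 111224 and 113459 in melatonin. Single markers did not move alike. *Il7r* was at 1995 ± 160 (SD, n = 3) in vehicle and 1032 ± 539 in melatonin. *Il1rl1* was at 8075 ± 574 in vehicle and 12802 ± 3466 in melatonin, and *Gata3* at 19365 ± 321 and 20469 ± 3605. Of 33 markers of other lung and blood cells, 22 were listed, with a sum between 3800 and 5092 in vehicle and between 2103 and 2376 in melatonin, and 11, such as *Cd4* and *Col1a1*, were not among the listed genes. The sum of these markers moved with the treatment, and its part in the results was not tested. The melatonin libraries did not resemble one another in every respect. The Y-linked gene *Ddx3y* was at 0 in melatonin replicates 2 and 3 and between 746 and 1071 in the other 4 libraries, although the methods name female mice. The female-specific RNA *Xist* was at 579 and 1091 in melatonin replicates 2 and 3 and between 0 and 13.6 in the other 4. In these transcripts melatonin replicate 1 resembled the vehicle libraries, and it cannot have come from the same mice as melatonin replicates 2 and 3. No synthetase gene of the list lies on chromosome X or Y. In a bulk measurement, fewer cells with a transcript and less of it per cell cannot be told apart.

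With melatonin, 10 of the 20 cytosolic synthetase transcripts fell, none rose and 10 did not pass the test, and the median log2 fold change of the 20 was −0.31. Of the 16 mitochondrial synthetase transcripts, 6 fell, 3 rose and 7 did not pass the test, with a median of −0.07 that went to −0.04 without vehicle replicate 1. The test was limma on log2 (normalized count + 1), a scale that understates the change of low genes, with p-values adjusted over all 14419 genes tested and a threshold of 0.05. Over all of these genes, 24.7% were lower and 24.5% were higher, with a median of 0.00. The melatonin values lay entirely below the vehicle values for 13 cytosolic and 7 mitochondrial transcripts, against 30.3% of all genes tested, and entirely above them for 1 and 4, against 30.0%. The 10 cytosolic transcripts at an adjusted p above 0.05 are reported with values, since a p that misses the threshold does not show that a level stayed the same.

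**Figure D1:**
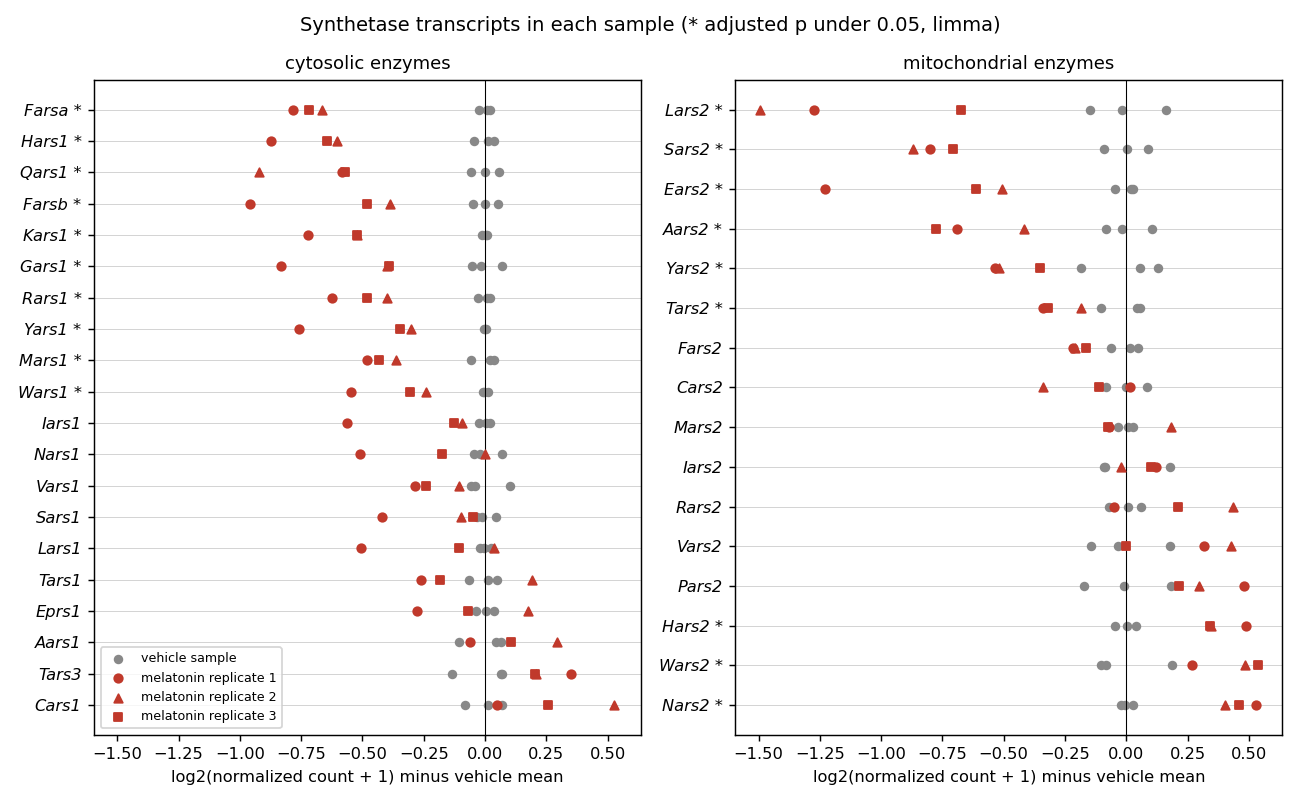
Level of each synthetase transcript in each sample, as log2 (normalized count + 1) minus the mean of the 3 vehicle samples, for cytosolic enzymes on the left and mitochondrial enzymes on the right. Asterisks mark limma adjusted p-values under 0.05. The melatonin values of the upper 10 cytosolic transcripts lie left of all their vehicle values, and melatonin replicate 1 is the lowest melatonin sample in 18 of the 20 cytosolic rows.

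The 3 melatonin samples did not share the cytosolic difference evenly. The median of the 20 cytosolic transcripts relative to vehicle was −0.53 on the log2 scale in melatonin replicate 1, −0.17 in replicate 2 and −0.27 in replicate 3. Replicate 1 was the lowest of the 3 melatonin samples for 18 of 20 cytosolic transcripts and for 6 of 16 mitochondrial ones, against 38.9% of all genes tested. The mitochondrial medians were closer together, at −0.06, −0.10 and −0.09. Replicate 1 is also the melatonin library with *Ddx3y* and little or no *Xist*, as in vehicle, and the part of this difference in the result was not tested. Without melatonin replicate 1, the same 10 cytosolic transcripts remained lower and *Cars1* was called higher. In this fit, here and below, melatonin replicates 2 and 3, with *Xist* and without *Ddx3y*, stand against vehicle libraries of the opposite kind. Treatment and this difference cannot be told apart in it.

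Phenylalanyl-tRNA synthetase, which is built from 2 kinds of subunit encoded by *Farsa* and *Farsb*, had among the largest falls in the cytosolic set. *Farsa* (chromosome 8, 85583610 to 85595887 in GRCm39), the alpha subunit, was at 2966, 2900 and 2995 normalized counts in vehicle and at 1716, 1862 and 1794 in melatonin. The groups were far apart and the spread within each was small. Its log2 fold change was −0.72 ± 0.07 (SE, adjusted p = 0.00014 by limma). *Farsb* (chromosome 1, 78392766 to 78465534), the beta subunit, was at 3194, 3080 and 2978 in vehicle and at 1586, 2357 and 2210 in melatonin, with replicate 1 well below the others. Its log2 fold change was −0.61 ± 0.14 (SE, adjusted p = 0.0065 by limma), and −0.43 without melatonin replicate 1. Exons of *Farsb* overlap those of *Sgpp2* on the opposite strand, but 0% of the 31-base words of its canonical transcript occur in transcripts of other genes. Per kilobase of transcript, the 2 subunits were at 1611 and 1400 normalized counts in vehicle and at 976 and 931 in melatonin.

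*Hars1* (chromosome 18, 36899580 to 36916258), the cytosolic histidyl enzyme, was at 3653, 3715 and 3515 normalized counts in vehicle and at 1980, 2385 and 2321 in melatonin. The melatonin values all lay below those in vehicle, and the log2 fold change was −0.71 ± 0.09 (SE, adjusted p = 0.00038 by limma). *Hars1* and the mitochondrial *Hars2* lie head to head, and their exons overlap over 198 bases. Of the 31-base words of the *Hars1* transcript, 14.8% also occur in transcripts of other genes, mainly *Hars2*, so that reads from this stretch can be assigned to either gene. Whether strand was used in counting is not given in the sources used here.

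The multisynthetase complex holds several cytosolic synthetases together on scaffold proteins. Of the 7 listed enzymes of this complex, 4 fell and 3 did not pass the test, with a median log2 fold change of −0.42, and of the 13 enzymes outside it 6 fell, with a median of −0.23. *Qars1* (chromosome 9, 108384905 to 108393140), the glutaminyl enzyme, was at 1815, 1676 and 1744 normalized counts in vehicle and at 1164, 920 and 1174 in melatonin. Here replicate 2 and not replicate 1 was the lowest melatonin sample. The log2 fold change of *Qars1* was −0.69 ± 0.11 (SE, adjusted p = 0.0011 by limma). The arginyl enzyme *Rars1* and the methionyl enzyme *Mars1* fell with log2 fold changes of −0.50 and −0.42. Exons of *Mars1* overlap *Ddit3* on the opposite strand, and 1.51% of the 31-base words of its canonical transcript occur in other genes. The isoleucyl enzyme *Iars1* had −0.26 (adjusted p = 0.1 from limma), the leucyl enzyme *Lars1* −0.19 (0.24), and *Eprs1*, whose protein charges both glutamyl and prolyl tRNAs, −0.06 (0.69). *Iars1* shares 17.9% of its 31-base words with other genes, mainly *Gm4849*. Without melatonin replicate 1 the values were −0.11 for *Iars1*, −0.03 for *Lars1* and 0.05 for *Eprs1*.

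In mammals, *Kars1* and *Gars1* each make a cytosolic and a mitochondrial form of the enzyme from a single gene, for lysine and for glycine. *Kars1* (chromosome 8, 112719747 to 112738004) was at 3212, 3218 and 3176 normalized counts in vehicle and at 1939, 2227 and 2232 in melatonin. Its vehicle samples were nearly equal and all 3 melatonin samples lay clearly below them. The log2 fold change was −0.59 ± 0.08 (SE, adjusted p = 0.00058 by limma). *Gars1* (chromosome 6, 55014927 to 55061231) was at 7110, 7562 and 6944 in vehicle and at 4042, 5459 and 5494 in melatonin. Its log2 fold change was −0.54 ± 0.12 (SE, adjusted p = 0.006 by limma), and −0.39 without melatonin replicate 1. Since counts per gene do not separate the forms, these falls cannot be assigned to either compartment.

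The remaining cytosolic falls were those of the tyrosyl enzyme *Yars1* and the tryptophanyl enzyme *Wars1*, with log2 fold changes of −0.47 and −0.36, each with a limma adjusted p of 0.01. *Wars1*, which interferon gamma is known to induce, was not called after a correction for GC content, at −0.24. The most abundant cytosolic transcript per kilobase was the asparaginyl *Nars1*, at 11262, 11976 and 11073 normalized counts in vehicle and 8025, 11414 and 10107 in melatonin. The groups overlapped, and its log2 fold change of −0.23 (95% interval −0.51 to 0.05) did not pass the test. It was −0.09 without melatonin replicate 1, and −0.34 and called without melatonin replicate 2. The valyl *Vars1* was at −0.21 (limma adjusted p = 0.059), the seryl *Sars1* at −0.19 and the threonyl *Tars1* at −0.09. Without melatonin replicate 1 these were −0.07 for *Sars1* and 0.00 for *Tars1*, and *Vars1* was called, at −0.26, without melatonin replicate 2.

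The 3 cytosolic transcripts with positive log2 fold changes were not called. *Tars3*, a second threonyl enzyme related to *Tars1*, was the least abundant cytosolic member, at 221, 254 and 255 normalized counts in vehicle and 310.0, 281 and 279 in melatonin. All 3 melatonin values were above the vehicle values, and the log2 fold change was 0.25 (95% interval −0.03 to 0.53). The cysteinyl *Cars1* had 0.28 (limma adjusted p = 0.079), which was 0.39 and called without melatonin replicate 1 and 0.15 without melatonin replicate 2. The alanyl *Aars1* had 0.11 (limma adjusted p = 0.38), and between 0.02 and 0.20 without melatonin replicate 2 or 1. *Aars1* shares 22.6% of its 31-base words with other annotated genes, mainly *Exosc6*, which was not among the listed genes.

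The cytosolic changes followed transcript length. The 10 transcripts that fell had canonical lengths from 1834 to 2939 bases, and the 10 that were not called had lengths from 2745 to 6749 bases, of which only *Nars1* was shorter than the longest that fell. Across the 20 cytosolic genes, Spearman's rho between length and log2 fold change was 0.87, given as a description since the genes share the same 6 libraries. Across the 16 mitochondrial genes it was 0.13 and across 14391 genes tested with a known length 0.19. When all genes were split by length into 4 bins of nearly equal size, the bin of 1654 to 2977 bases, which holds all 10 of the cytosolic transcripts that fell, was centred on a log2 fold change of 0.00, and 24.7% of its genes were lower. The bin of the shortest genes, up to 1653 bases, had a median of −0.30 and 34.8% lower, but holds no synthetase. After the trend with length over all genes had been removed from each sample, 13 cytosolic transcripts were lower and rho across all 20 was 0.78. The correlation with GC content was −0.09 in the cytosolic set.

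**Figure D2:**
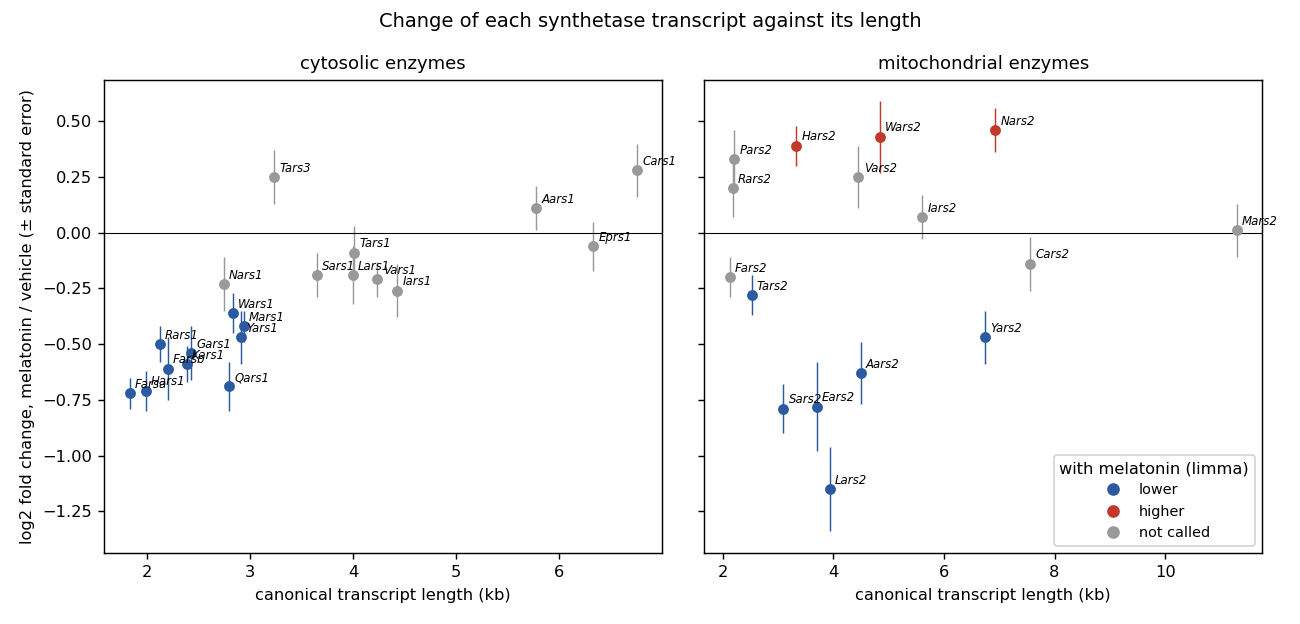
Log2 fold change (melatonin over vehicle, points, with standard errors as bars) of each synthetase transcript against the length of its canonical transcript in kilobases. Cytosolic enzymes on the left run from the falls of *Farsa* and *Hars1* near 2 kb to the values near and above 0 of the longest transcripts, and mitochondrial enzymes on the right follow no such order.

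The promoters of the cytosolic genes were searched for 2 short motifs because ATF4 and MYC, regulators of amino acid metabolism and growth, are known to act on genes of this pathway. The first, TGATGNAA, is the core of the amino acid response element bound by ATF4 with C/EBP partners, and the second, CACGTG, is the E-box bound by MYC and related factors. Both strands were read over the 250 bases before the start of the canonical transcript in GRCm39, and matches may overlap. TGATGNAA was present in 2 of 20 cytosolic promoters, *Aars1* and *Tars1*, in none of the 16 mitochondrial promoters, and in 2.2% of the 14391 promoters of tested genes. CACGTG was present in 3 cytosolic promoters, *Aars1*, *Farsb* and *Iars1*, in no mitochondrial one and in 7.16% of all. These 4 promoters are printed 5′ to 3′ in the direction of the gene, with the matches in capitals (those of TGATGNAA lie on the opposite strand and are printed as its reverse complement), because they are the only ones of the 36 that hold either motif.
Aars1, chr8:111760258-111760507, plus strand: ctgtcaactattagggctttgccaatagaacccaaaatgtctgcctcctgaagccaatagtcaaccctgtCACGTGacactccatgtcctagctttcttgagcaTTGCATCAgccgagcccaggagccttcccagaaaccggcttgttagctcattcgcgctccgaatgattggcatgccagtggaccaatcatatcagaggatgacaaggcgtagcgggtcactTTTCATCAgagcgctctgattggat
Tars1, chr15:11399752-11400001, minus strand: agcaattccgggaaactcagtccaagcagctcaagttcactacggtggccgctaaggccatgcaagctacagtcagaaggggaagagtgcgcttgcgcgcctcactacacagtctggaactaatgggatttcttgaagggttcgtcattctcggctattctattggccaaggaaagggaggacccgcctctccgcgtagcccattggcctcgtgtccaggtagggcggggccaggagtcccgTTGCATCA
Farsb, chr1:78465535-78465784, minus strand: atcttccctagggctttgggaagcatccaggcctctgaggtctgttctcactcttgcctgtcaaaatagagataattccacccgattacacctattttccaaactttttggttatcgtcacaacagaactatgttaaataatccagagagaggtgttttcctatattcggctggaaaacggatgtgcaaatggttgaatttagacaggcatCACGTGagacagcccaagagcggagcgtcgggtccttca
Iars1, chr13:49835326-49835575, plus strand: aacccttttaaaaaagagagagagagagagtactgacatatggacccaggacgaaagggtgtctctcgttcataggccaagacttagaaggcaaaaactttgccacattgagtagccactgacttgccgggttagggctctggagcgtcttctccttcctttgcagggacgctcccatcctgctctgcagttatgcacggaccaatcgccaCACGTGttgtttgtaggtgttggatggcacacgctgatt

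Of these 4 genes only *Farsb* was among the 10 transcripts that fell, and the 9 other promoters of that set held neither motif. *Aars1* and *Tars1*, the holders of TGATGNAA, had log2 fold changes of 0.11 and −0.09, and *Iars1* had −0.26. A match describes letters in this window and not binding, and a window without one says nothing about the factor.

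Per kilobase in vehicle, the mitochondrial transcripts other than *Lars2* lay below all cytosolic transcripts but *Cars1* and *Tars3*. *Lars2* (chromosome 9, 123195952 to 123291731), the mitochondrial leucyl enzyme, was at 4070 normalized counts per kilobase in vehicle, while the next mitochondrial transcript, *Tars2*, was at 428. Apart from *Tars3* at 75.3, cytosolic transcripts ranged from 394 for *Cars1* to 4166 for *Nars1* per kilobase in vehicle. The methionyl *Mars2* was the least abundant member, at 26.3 per kilobase. It was at 299, 290 and 303 normalized counts in vehicle and 283, 338 and 282 in melatonin, with overlapping groups and a log2 fold change of 0.01 (95% interval −0.26 to 0.29), whose sign changed under several alternatives.

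**Figure D3:**
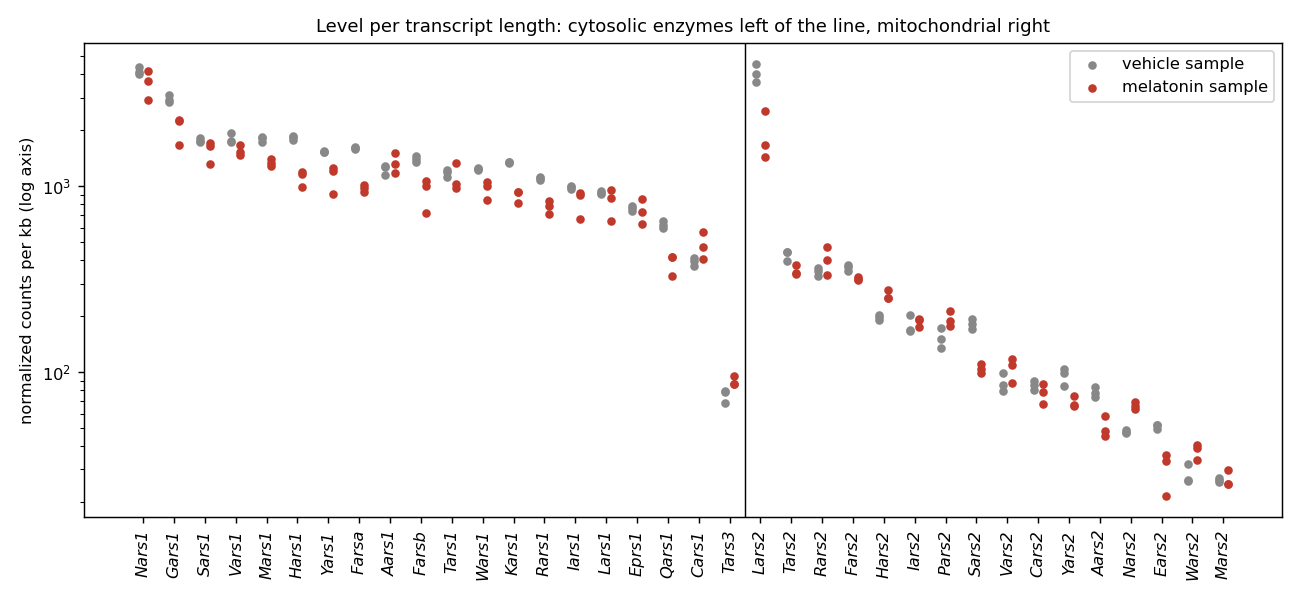
Normalized counts per kilobase of canonical transcript, on a log axis, in each of the 3 vehicle and 3 melatonin samples, with cytosolic enzymes left of the line and mitochondrial enzymes right of it, each ordered by level. *Lars2* stands at the level of the most abundant cytosolic transcripts, and *Tars3* among the mitochondrial ones.

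*Lars2* also had the largest fall of all 36 members. It was at 17857, 14407 and 15769 normalized counts in vehicle and at 6592, 5666 and 9998 in melatonin. The groups did not overlap, but the melatonin samples were spread widely, with a coefficient of variation of 30.8%. The log2 fold change was −1.15 ± 0.19 (SE, adjusted p = 0.0013 by limma), and between −1.38 and −0.97 with each sample left out. The summed counts of the 16 mitochondrial enzymes were 24181 ± 1690 (SD, n = 3) in vehicle and 15328 ± 2201 in melatonin, and without *Lars2* they were 8170 ± 83.1 and 7909 ± 107. The 20 cytosolic enzymes summed to 90592 ± 1469 in vehicle and 75414 ± 9390 in melatonin, 83.2% of vehicle.

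The other 5 mitochondrial transcripts that fell had smaller log2 fold changes than *Lars2*. *Sars2*, the seryl enzyme (chromosome 7, 28441392 to 28454494), was at 526, 596 and 561 normalized counts in vehicle and at 321, 306 and 343 in melatonin. The groups were well apart, and the log2 fold change was −0.79 ± 0.11 (SE, adjusted p = 0.0005 by limma). *Ears2*, the glutamyl enzyme, was at 192, 193 and 184 in vehicle and at 80.3, 133 and 124 in melatonin. Its log2 fold change of −0.78 ± 0.20 (SE, adjusted p = 0.013 by limma) was −0.56 without melatonin replicate 1. *Sars2* and *Ears2* share 13.9% and 15.3% of their 31-base words with other genes, mainly *Mrps12* and *Ubfd1* on the opposite strand. *Aars2*, the alanyl enzyme, was at 330, 346 and 377 normalized counts in vehicle and at 217, 262 and 204 in melatonin, which gave a log2 fold change of −0.63 ± 0.14 (SE, adjusted p = 0.0052 by limma). *Yars2*, the tyrosyl enzyme, was at 568, 672 and 706 in vehicle and at 445, 450.1 and 506 in melatonin, which gave a log2 fold change of −0.47 ± 0.12 (SE, adjusted p = 0.0095 by limma). Neither gene's groups overlapped. The value of *Yars2* is uncertain because 57.2% of its 31-base words also occur in transcripts of other genes, mainly *Dnm1l* on the opposite strand. The threonyl *Tars2* had the smallest called fall, −0.28, and lost its call in 6 of the 19 alternatives, among them those without vehicle replicate 2 or 3 or melatonin replicate 3. Its value was −0.15 after the correction for GC content, where it was not called either.

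The 3 mitochondrial transcripts that rose were those of the asparaginyl, histidyl and tryptophanyl enzymes. *Nars2* (chromosome 7, 96600689 to 96717097) was at 331, 338 and 327 normalized counts in vehicle and at 480, 439 and 457 in melatonin, which gave a log2 fold change of 0.46 ± 0.10 (SE, adjusted p = 0.0055 by limma). *Hars2* (chromosome 18, 36916061 to 36925615) was at 677, 659 and 637 in vehicle and at 924, 835 and 835 in melatonin, which gave a log2 fold change of 0.39 ± 0.09 (SE, adjusted p = 0.0066 by limma). Both kept their call in all 19 alternatives. *Wars2* was at 126, 155 and 128 in vehicle and at 163, 190.1 and 197 in melatonin. Its groups came close to each other, and its log2 fold change of 0.43 ± 0.16 (SE, adjusted p = 0.048 by limma) kept its call in 7 of 19 alternatives and in 1 of the 6 fits that left out a sample, the one without melatonin replicate 1.

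Of the mitochondrial transcripts that did not pass the test, the prolyl *Pars2* had a log2 fold change of 0.33 (limma adjusted p = 0.064), with all melatonin values above the vehicle values. The valyl *Vars2* was at 0.25, the arginyl *Rars2* at 0.20 and the isoleucyl *Iars2* at 0.07. The phenylalanyl *Fars2* was at −0.20 (limma adjusted p = 0.086), with all melatonin values below the vehicle values, and the cysteinyl *Cars2* at −0.14. Several of these values turned on single libraries. *Cars2* was −0.22 without melatonin replicate 1 and −0.05 without replicate 2. *Rars2* was 0.32 and called higher without melatonin replicate 1, and 0.08 without replicate 2. *Vars2* was 0.37 and called without melatonin replicate 3, and 0.16 without replicate 2. *Pars2* was 0.42 and called without vehicle replicate 3, and *Iars2* lay between 0.02 and 0.16, the latter without vehicle replicate 1. Exons of *Cars2*, *Iars2* and *Mars2* overlap genes on the opposite strand, and 54.1%, 49.0% and 33.9% of their 31-base words also occur in transcripts of other genes, so these 3 values are uncertain.

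For 16 amino acids, a cytosolic enzyme could be set beside the mitochondrial enzyme for the same amino acid, with *Eprs1* used for both glutamate and proline and the mean of *Farsa* and *Farsb* for phenylalanine. The log2 ratio of their normalized counts, cytosolic over mitochondrial and not corrected for length, was lower in every melatonin sample than in any vehicle sample for 7 amino acids (Phe, His, Met, Asn, Arg, Val, Trp), higher in every melatonin sample for 5 (Ala, Glu, Leu, Ser, Thr), and overlapped for 4 (Cys, Ile, Pro, Tyr). For single transcripts, 30.3% of all genes tested lay wholly below vehicle and 30.0% wholly above, so that a lack of overlap was common in these data. For the 12 without overlap the exact two-sided permutation test gave p = 0.1, the smallest that 3 samples against 3 allow, so that no pair could pass a threshold of 0.05. Over all members, the cytosolic median minus the mitochondrial median was −0.25 on the log2 scale, and −0.15 without melatonin replicate 1.

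**Figure D4:**
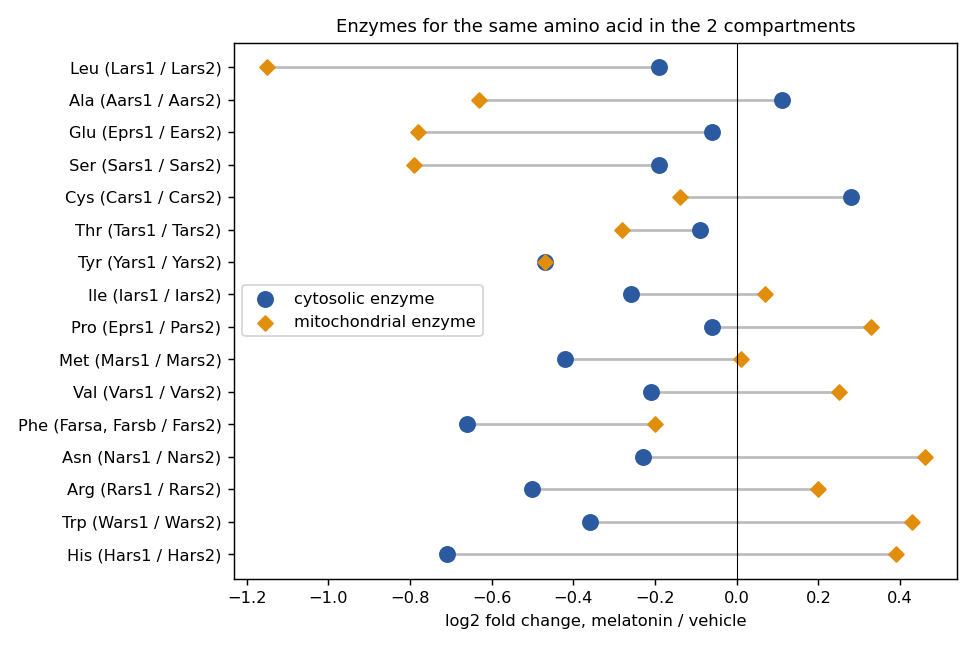
Log2 fold change (melatonin over vehicle) of the cytosolic enzyme (circles) and the mitochondrial enzyme (diamonds) for each of 16 amino acids, ordered by the difference. The mitochondrial enzyme is the lower of the pair for leucine, alanine, glutamate and serine at the top, and the higher for histidine, tryptophan, arginine and asparagine at the bottom, while the symbols for tyrosine coincide.

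The histidine pair diverged most. Its log2 ratio was 2.43, 2.49 and 2.46 in vehicle and 1.10, 1.51 and 1.47 in melatonin, a difference of −1.10. The vehicle samples were nearly equal, and per kilobase of transcript *Hars1* was at 9.24 times the level of *Hars2* in vehicle and at 4.31 times in melatonin. The tryptophan pair had ratios of 4.78, 4.51 and 4.76 in vehicle and 3.87, 3.96 and 3.84 in melatonin. In the opposite direction, the leucine pair, the only one with more of the mitochondrial than of the cytosolic transcript per kilobase, had log2 ratios of −2.27, −1.94 and −2.11 in vehicle and −1.34, −0.58 and −1.54 in melatonin. The alanine pair was at 4.34 ± 0.06 (SD, n = 3) in vehicle and 5.08 ± 0.13 in melatonin, with all melatonin ratios above those in vehicle. The mean ratio of the tyrosine enzymes was 2.79 in both groups, and each enzyme had a log2 fold change of −0.47.

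Synthetases are also divided by the fold of their catalytic domain into class I and class II. Of the 9 cytosolic class I enzymes 5 fell, and of the 10 of class II 5 fell, with *Eprs1* holding a domain of each. The mitochondrial classes had 3 lower and 1 higher of 9 in class I and 3 lower and 2 higher of 7 in class II, against 24.7% lower and 24.5% higher over all genes tested.

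Genes that work beside the synthetases were counted from a list of 28, of which 10 fell, 5 rose and 13 did not pass the test, against 24.7% lower and 24.5% higher over all genes tested, with a median log2 fold change of −0.26. The 3 scaffold proteins of the multisynthetase complex all fell. *Eef1e1* was at 1606 ± 110 (SD, n = 3) in vehicle and 929 ± 143 in melatonin, a log2 fold change of −0.80, *Aimp2* had −0.54 and *Aimp1* −0.26 (adjusted p = 0.042 from limma). The call of *Aimp1* held in 9 of the 19 alternatives, and its value was −0.03 after the correction for transcript length. The factors that carry charged tRNAs to the ribosome also fell, cytosolic *Eef1a1* with −0.78 and mitochondrial *Tufm* with −0.68. The mitochondrion lacks a glutaminyl enzyme and corrects misacylated tRNA with an amidotransferase, of which the subunit *Qrsl1* fell with −0.65, while *Gatb* at −0.29 and *Gatc* at −0.04 did not pass the test. Without vehicle replicate 2 these were −0.15 and −0.01, and *Gatc* lay between −0.09 and 0.00 with each sample left out. The largest fall of the list was that of *Dtd1*, a D-aminoacyl-tRNA deacylase, which was at 806 ± 13.4 in vehicle and 368 ± 88.3 in melatonin (log2 fold change −1.16, adjusted p = 0.00081 by limma). *Dtd2*, with the same kind of activity, rose with 0.39, a call that held in 16 of 19. The largest rises were *Pstk*, the kinase in selenocysteine synthesis on tRNA, with 0.72 and *Elac1*, a tRNA-processing nuclease, with 0.58. *Mtfmt*, which formylates the mitochondrial initiator tRNA, rose with 0.35, a call that held in 13 of 19.

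Amino acid shortage is known to raise many cytosolic synthetase transcripts through ATF4, so 32 genes of this amino acid response were set beside them. Of these, 12 fell, 7 rose and 13 did not pass the test, with a median log2 fold change of −0.19, and over all genes tested 24.7% were lower and 24.5% higher. *Atf4* itself was at 5593 ± 271 (SD, n = 3) in vehicle and 4027 ± 997 in melatonin, a log2 fold change of −0.50 (adjusted p = 0.029 from limma), which was −0.30 without melatonin replicate 1 and kept its call in 11 of 19 alternatives. The 3 largest falls were *Cth*, the enzyme that makes cysteine from cystathionine, with −2.33, *Nupr1*, a stress-induced chromatin protein, with −1.85, and *Stc2*, a secreted glycoprotein, with −1.38. *Cth* was at 9.34, 77.6 and 50.3 normalized counts in melatonin, and its value was −1.46 without replicate 1. The largest rises were *Cebpb*, a partner of ATF4, with 2.86, the glycine transporter *Slc6a9* with 0.85 and the amino acid transporter subunit *Slc3a2* with 0.56. *Cebpb* varied widely, at 12.1, 59.6 and 189 in vehicle and 385, 606 and 247 in melatonin, and its value was 1.85 without vehicle replicate 1 and was not called without melatonin replicate 2. *Slc6a9* was at 714, 379 and 398 in melatonin, and its value was 0.56 without replicate 1 and was not called without vehicle replicate 2. The asparagine synthetase *Asns*, at −0.02, did not pass the test, and it was at 0.21 and called higher without melatonin replicate 1. Melatonin replicate 1 was the lowest melatonin sample for 25 of the 32. TGATGNAA was present in 25% of their promoters. *Myc* was at 2649 ± 56.7 in vehicle and 1852 ± 332 in melatonin, a log2 fold change of −0.53. Whether any of these changes bears on the synthetases was not tested.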

How the data were processed

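RNA sequencing libraries of 3 melatonin-treated and 3 vehicle-treated aILC2 samples were analyzed. The authors trimmed the reads, aligned them to mm39 with STAR, used the E/M algorithm of Partek, which can divide a read among genes, to quantify Gencode M33, removed genes under 10 counts and applied the median ratio scaling of DESeq2. Genes whose estimated counts sum to 10 or more over the 6 samples are in the table, among them 1876 under 10 in every sample. The deposited values are a signal (scaled estimates of reads per gene) and not whole counts. The study's methods give 10 pg of RNA per library and the labels 10 ng. The spacing of low values gave each sample's value of 1 read and so its depth. The floor was 3 estimated counts, and the lowest synthetase value was 86.

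Gene names, GRCm39 positions, canonical transcripts and promoters came from the genome and Gencode M39, which named 16334 of 16381 listed genes. Genes with at least 10 normalized counts in at least 1 sample (14419) were tested with limma 3.58.1 in R 4.3.3 (lmFit, eBayes with a mean-variance trend) on log2 (value + 1), with treatment as the only term and Benjamini-Hochberg adjustment. Fit code was tested on simulated data. Lists are described by counts and medians, without a set test. Shared sequence is the share of 31-base words of a canonical transcript found, on either strand, in transcripts of other genes.

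Every synthetase is named, and values in every sample are given for the 5 largest called rises and falls and the most and least abundant member of each compartment, the dual genes *Gars1* and *Kars1*, and *Farsa* and *Farsb*. From each list of other genes, the called members with the 3 largest rises and 3 largest falls are named. The other list members, *Il7r*, *Ddx3y*, *Myc* and the genes that share sequence were named after their values were seen. The synthetases, the lists and the tests were chosen with earlier results of these data known. The alternatives were other pseudocounts, filters, scalings and spread models, a replicate block, corrections for transcript length and GC content, and each sample left out.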

Additional observations from a re-analysis of the deposited data

How the results depend on the processing

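The 19 alternatives left the 10 cytosolic falls in place, except that *Wars1* lost its call after the GC correction, and gave 10 to 13 cytosolic falls in all. The number of cytosolic rises went from 0 to 1 (*Cars1*) with sample weights and lay between 0 and 1 with each sample left out, the 1 coming without melatonin replicate 1. Rises among the charging partners went from 5 to 3 with voom on estimated counts and to between 3 and 5 with a sample left out, 3 without vehicle replicate 1 or 3. Rises among the amino acid response genes went from 7 to 4 without the mean-variance trend and lay between 4 (without vehicle replicate 2) and 11 (without melatonin replicate 1). The sign changed for 5 synthetases, none of which had passed the test. With the transcript length correction *Aars1* went to −0.06 and *Iars2* to −0.11. With quantile normalization *Eprs1* went to 0.05, *Tars1* to 0.01 and *Mars2* to −0.06, and with sample weights *Eprs1* went to 0.04 and *Tars1* to 0.03. *Mars2* was at −0.03 with upper quartile scaling, 0.00 with voom and −0.10 with the GC correction. With each sample left out, *Eprs1* lay between −0.17 and 0.05, *Tars1* between −0.22 and 0.00 and *Mars2* between −0.07 and 0.06. *Gatc* went to 0.00 and *Asns* to 0.02 with the same total in every sample, and *Asns* was at 0.12 with quantile normalization and 0.11 with sample weights. *Asns* lay between −0.14 and 0.21 with each sample left out. The mitochondrial median went to −0.03 with the same total, −0.11 with upper quartile scaling, −0.14 with quantile normalization or the length correction, and between −0.10 and −0.04 with a sample left out. The difference between the compartment medians stayed negative, from −0.33 to −0.13. The cause of these shifts was not tested. Same-numbered samples had deviations from their group means correlated at −0.05, 0.01 and −0.05, so no pairing by replicate number was seen. With 3 samples per group, such values do not show that the samples were unpaired. A fit with the replicate number as a block gave 0 cytosolic rises and 10 falls, 2 mitochondrial rises and 6 falls, 5 and 9 for the charging partners and 6 and 12 for the amino acid response genes, and a difference of medians of −0.25. Library numbers run apart between the groups, so a batch that followed them cannot be told apart from the treatment.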
